A study of Mus musculus with 9 samples.

Results

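Open chromatin was examined at 10 genes of leukocyte adhesion and NF-kB inflammatory signalling in brain endothelial cells (ECs). The genes were taken by name and not by a measured value, though earlier results of these data were known. They comprise the adhesion molecules Vcam1, Icam1, Icam2, Sele and Selp, the chemokines Ccl2, Cxcl1 and Cxcl12, and the NF-kB inhibitors Nfkbia and Tnfaip3. Every peak whose annotated gene was one of them was used, which gave 262 of the 253457 peaks in the 9 lists and 10 of the 20035 genes named in them. Peaks of different libraries that shared at least 1 bp were merged into regions, and 74 of 92495 regions belonged to these genes. A region is named here by its gene and by the median distance in kb of its peak centres from the transcription start site (TSS), positive when downstream. A region with a centre within 1000 bp of the TSS is called a TSS region. A region belongs to a gene only by the deposited annotation, at up to 282.3 kb from the TSS. Whether it regulates that gene was not tested.

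The measurement was Omni-ATAC-seq on nuclei of flow-sorted brain ECs of mice, in which a transposase cuts and tags accessible DNA. There were 4 groups on the C57BL/6J background: Cre controls (WT Cre) with n = 2 libraries at the young and n = 2 at the old age, and Klf4 knockouts (EC-K4KO) with n = 3 young and n = 2 old. All mice carried a VE-Cadherin (Cdh5) Cre active in endothelium and received tamoxifen, and EC-K4KO mice also carried floxed Klf4, which codes for a zinc-finger transcription factor of the endothelium. The labels give age as young or old only, the study used male and female mice, and the libraries are biological replicates by the study's description, with no label that ties a library to an animal or a pool. A p-value here measures the spread between these libraries. The lists of young and old libraries carry different name prefixes, so age and whatever those prefixes mark cannot be told apart. In bulk libraries, a peak that is weaker in each cell and a peak that is present in fewer cells cannot be told apart either.

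Lists held 6157 and 9598 peaks in young WT Cre, 23848 to 27992 in young EC-K4KO, 32555 and 43893 in old WT Cre, and 39079 and 45026 in old EC-K4KO. Read totals were not part of the files, so depth is unknown. A peak within 1000 bp of the TSS was found for 10 to 18 of 20 endothelial marker genes per library, and Erg and Ly6c1 had none in any library. The same count was 0 of 10 microglial genes in every library, 0 to 1 of 8 neutrophil, 0 to 2 of 8 pericyte, 0 to 2 of 8 astrocyte, 0 to 2 of 10 oligodendrocyte and 0 to 4 of 10 neuronal genes. Neuronal counts were 3 and 4 in old EC-K4KO and 1 and 0 in old WT Cre, and astrocyte counts 2 and 2 against 0 and 0. Pericyte and oligodendrocyte counts overlapped between these groups. Whether cell content differed between groups was not tested. Klf4 had a peak within 1000 bp of the TSS in all 9 libraries, and an open TSS does not check the deletion. The list lengths moved with the groups. Counts of gained regions are therefore also given for lists of equal length, and the part of list length in the other results was not tested.

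When the endothelium is activated, NF-kB enters the nucleus and switches on adhesion molecules that slow, hold and pass leukocytes through the vessel wall, together with chemokines that draw them there. Selectins (Sele, Selp) catch rolling leukocytes, and Vcam1, Icam1 and Icam2 bind their integrins. NF-kB also switches on its own brakes, Nfkbia, which codes for IkBa and holds NF-kB in the cytoplasm, and Tnfaip3, which codes for the ubiquitin-editing enzyme A20. NF-kB binds a short DNA element called kappaB.

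The promoters of 3 of these genes held a match to the kappaB element in the bases before the TSS, and they are shown because NF-kB acts through this element. RefSeq promoter windows on GRCm38.p6, from 250 bases before to 50 after the TSS, were found for 7 of the 10 genes, and Vcam1, Icam2 and Ccl2 were not matched. Each line runs 5′ to 3′ along the gene from 140 bases before the TSS to the last base before it, and capitals mark kappaB matches on either strand.
Cxcl1 promoter, chr5:90891105-90891244, plus strand: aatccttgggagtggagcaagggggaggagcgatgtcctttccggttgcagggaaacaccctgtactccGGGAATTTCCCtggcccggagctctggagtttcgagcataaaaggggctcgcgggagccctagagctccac
Nfkbia promoter, chr12:55492648-55492787, minus strand: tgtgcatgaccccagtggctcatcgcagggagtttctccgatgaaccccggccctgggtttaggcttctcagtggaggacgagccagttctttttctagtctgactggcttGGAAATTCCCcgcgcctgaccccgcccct
Tnfaip3 promoter, chr10:19015411-19015550, minus strand: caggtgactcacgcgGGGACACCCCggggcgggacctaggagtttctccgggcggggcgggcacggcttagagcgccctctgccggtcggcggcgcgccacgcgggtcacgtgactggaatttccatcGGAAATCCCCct
In Cxcl1 the capitals are 2 overlapping matches, and Tnfaip3 had 2 separate ones. A second RefSeq start of Tnfaip3, inside the gene, has a window of its own with no kappaB match. A kappaB match was present in 8.46% of all 32851 windows of that length. The windows of Icam1, Sele, Selp and Cxcl12 held none, which says only that these letters are not in those 300 bases. A KLF motif match (GGGNGTGG) was present in the windows of Cxcl1 and Cxcl12, against 17.6% of all windows, an AP-1 match (TGANTCA) in those of Sele, Selp and Tnfaip3, against 7.81%, and an ETS match (CCGGAAG) in none, against 8.86%.

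Each of the 74 regions was then read from the same genome, as a stretch of up to 200 bases where most libraries had a peak. A kappaB match was present in 12 of the 74 stretches (16.2%), against 5.40% of the 92495 stretches taken the same way over all regions. KLF matches were present in 8 of 74 (10.8%) against 7.57%, AP-1 matches in 4 (5.41%) against 8.15%, and ETS matches in 0 against 3.19%. No match of one motif overlapped a match of another in these windows or stretches. The 2 regions below were chosen after their values were seen: the first was held by 8 libraries, the second by the 4 old libraries and no young one, and capitals mark kappaB matches.
Nfkbia +45.7 kb, chr12:55446805-55447004, plus strand: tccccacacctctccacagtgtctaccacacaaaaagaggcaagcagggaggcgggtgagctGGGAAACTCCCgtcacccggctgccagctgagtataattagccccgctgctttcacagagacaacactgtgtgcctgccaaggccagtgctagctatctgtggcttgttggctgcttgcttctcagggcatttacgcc
Tnfaip3 +50.4 kb, chr10:18964937-18965136, plus strand: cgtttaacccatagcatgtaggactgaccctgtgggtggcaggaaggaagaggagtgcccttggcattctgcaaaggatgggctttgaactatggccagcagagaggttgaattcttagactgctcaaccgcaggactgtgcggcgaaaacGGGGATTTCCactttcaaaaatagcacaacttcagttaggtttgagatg
In the next 2, which every library held, capitals mark KLF matches.
Nfkbia -6.4 kb, chr12:55498905-55499104, plus strand: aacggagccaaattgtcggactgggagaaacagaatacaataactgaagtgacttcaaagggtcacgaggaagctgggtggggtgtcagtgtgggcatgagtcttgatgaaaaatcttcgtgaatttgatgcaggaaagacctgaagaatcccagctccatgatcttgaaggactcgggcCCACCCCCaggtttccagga
Cxcl12 +269.5 kb, chr6:117437908-117438107, plus strand: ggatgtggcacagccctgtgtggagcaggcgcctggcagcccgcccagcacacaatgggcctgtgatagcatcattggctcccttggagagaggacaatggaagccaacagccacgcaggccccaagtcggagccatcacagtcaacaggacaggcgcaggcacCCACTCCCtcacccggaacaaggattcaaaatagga
The last 2 are the best-ranked distal region and the one that passed a test below, and neither stretch held a match.
Nfkbia +18.9 kb, chr12:55473673-55473872, plus strand: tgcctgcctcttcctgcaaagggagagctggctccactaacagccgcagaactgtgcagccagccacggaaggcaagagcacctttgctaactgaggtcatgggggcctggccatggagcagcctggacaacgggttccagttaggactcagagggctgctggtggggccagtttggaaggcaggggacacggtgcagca
Nfkbia +27.1 kb, chr12:55464946-55465145, plus strand: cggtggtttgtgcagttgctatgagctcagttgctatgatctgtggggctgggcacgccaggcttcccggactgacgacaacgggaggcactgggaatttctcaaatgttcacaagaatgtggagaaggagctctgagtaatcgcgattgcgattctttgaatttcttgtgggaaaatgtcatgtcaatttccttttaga

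Longer lists held more peaks at these genes, while their share of the list was similar in all groups. Young WT Cre libraries held 7 and 9 such peaks, young EC-K4KO libraries 19, 26 and 26, old WT Cre libraries 45 and 40, and old EC-K4KO libraries 46 and 44. Old libraries thus held more than any young library. Per 10000 listed peaks the values were 11.4 and 9.38 in young WT Cre, 7.97, 10.3 and 9.29 in young EC-K4KO, 10.3 and 12.3 in old WT Cre, and 10.2 and 11.3 in old EC-K4KO, so that the groups overlapped.

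**Figure D1:**
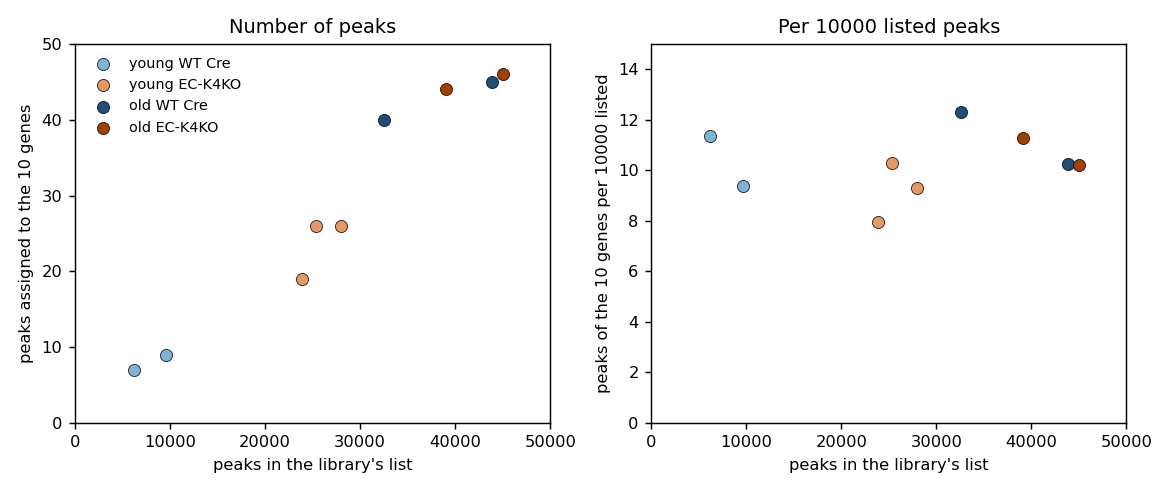
Each point is 1 library, coloured by group, with the number of peaks in its list on the x axis; the y axis is the number of peaks at the 10 genes on the left and that number per 10000 listed peaks on the right. The number runs from 7 to 46 along with list length, while the right panel stays between 7.97 and 12.3.

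Regions of these genes recurred somewhat more than all regions. Of the 74, 31 (41.9%) were found in 1 library, against 57.3% of all regions, and 5 (6.76%) were found in all 9, against 5.27%. Nfkbia held 77 of the 262 peaks in 14 regions, and Cxcl12 held 63 in 25 regions. Ccl2, a monocyte chemokine, held 2 peaks, 1 at -12.8 kb in young EC-K4KO 2 and 1 at -52.2 kb in old WT Cre 2, and none near its TSS. Promoter-class peaks of these genes lay lower in the lists than promoters in general: their median position was 18.4% to 41.8% of the list in young WT Cre, 31.8% to 36.0% in young EC-K4KO, and 18.8% to 31.6% in old libraries, against 33.4% to 37.7%, 19.5% to 21.7% and 15.4% to 20.1% for all promoters. These promoter-class medians, over 1 to 5 peaks a library, were thus below all promoters in 8 libraries. In young WT Cre 1, with 1 such peak, the position was above. The Nfkbia TSS peak, annotated to exon 1 in all but 1 library, is mostly left out of them. It lay at 6.12% to 11.9% of the list in young EC-K4KO and old libraries. Peaks of the 10 genes outside the promoter class lay higher than all such peaks in every library, at medians of 36.0% to 58.3% against 57.5% to 66.8%. These include TSS peaks annotated to an exon or intron, among them most of those of Nfkbia and all of those of Vcam1. The medians without them were not computed.

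The inhibitors were open at their TSS in every library. The rank of a peak is its position in the library's list by -log10 p, with 1 the strongest. The Tnfaip3 TSS ranked 1136 and 1885 in young WT Cre, 2523, 2282 and 3519 in young EC-K4KO, 1313 and 2075 in old WT Cre, and 2014 and 1944 in old EC-K4KO. By rank, every young EC-K4KO library placed it lower than every other library. The region spans chr10:19014962-19015858 (mm10) and is annotated as promoter. As a share of the list it lay at 18.4% and 19.6% in young WT Cre and 9.02% to 12.6% in young EC-K4KO. The share was 2.99% and 6.37% in old WT Cre and 4.5% and 5.0% in old EC-K4KO. By share, then, young WT Cre placed it lowest. The Nfkbia TSS ranked 1785 and 2994 in young WT Cre, 1459, 2568 and 2654 in young EC-K4KO, 3510 and 3869 in old WT Cre, and 5070 and 4191 in old EC-K4KO. The 4 old libraries ranked it lower than all young ones, in lists that were also longer. The region covers chr12:55491729-55492914, in exon 1 of 6 or the promoter. Its fold enrichment over local background was 4.29 to 5.71 in all 9 libraries, while that of the Tnfaip3 TSS was 5.51 to 8.82 in young and 8.78 to 10.4 in old libraries.

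Nfkbia also had the best-ranked distal region in 7 libraries, at +18.9 kb (chr12:55473326-55474385), within intron 2 of 3 of the transcript annotated to Mir1198. Its rank was 704 and 600 in young WT Cre, 1056, 1878 and 1547 in young EC-K4KO, 1415 and 1132 in old WT Cre, and 3634 and 2897 in old EC-K4KO. By rank the old EC-K4KO libraries placed it lowest, and only they ranked Cxcl12 +269.5 kb above it. As a share of the list it lay at 8.07% and 7.41% there, against 11.4% and 6.25% in young WT Cre. The share was 4.43% to 7.42% in young EC-K4KO and 3.22% and 3.48% in old WT Cre. A region at -6.4 kb was also found in all 9, at rank 4619 and 5014 in young WT Cre and 6129 to 10842 elsewhere. By share of the list the order was the reverse, at 75.0% and 52.2% in young WT Cre and 21.0% to 38.0% elsewhere. The Nfkbia regions at +29.8 and +42.1 kb were held by the 7 libraries outside young WT Cre and the one at +45.7 kb by those 7 and young WT Cre 2. All 3 lie in intron 1 of the Mir1198 transcript. Nfkbia -3.8 kb was held by the old libraries only, at ranks 17147 to 21396.

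Tnfaip3 had 7 further regions, none in a young WT Cre library. Tnfaip3 +50.4 kb (chr10:18964740-18965200, intergenic) was held by the old libraries only, at rank 11163 and 13179 in old WT Cre and 11636 and 13666 in old EC-K4KO, which overlap. Tnfaip3 +5.9 kb, in intron 2 of 8, was held by 2 young EC-K4KO libraries at 15651 and 13987 and by the old ones at 13750 and 12337 in WT Cre and 19081 and 19945 in EC-K4KO. By rank the old EC-K4KO libraries placed it lowest. As a share of the list it lay at 42.38% and 51.04% there. The share was 61.84% and 49.97% in young EC-K4KO 2 and 3, and 31.3% and 37.9% in old WT Cre. By share, then, young EC-K4KO 2 placed it lowest, and the EC-K4KO ages overlapped.

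**Figure D2:**
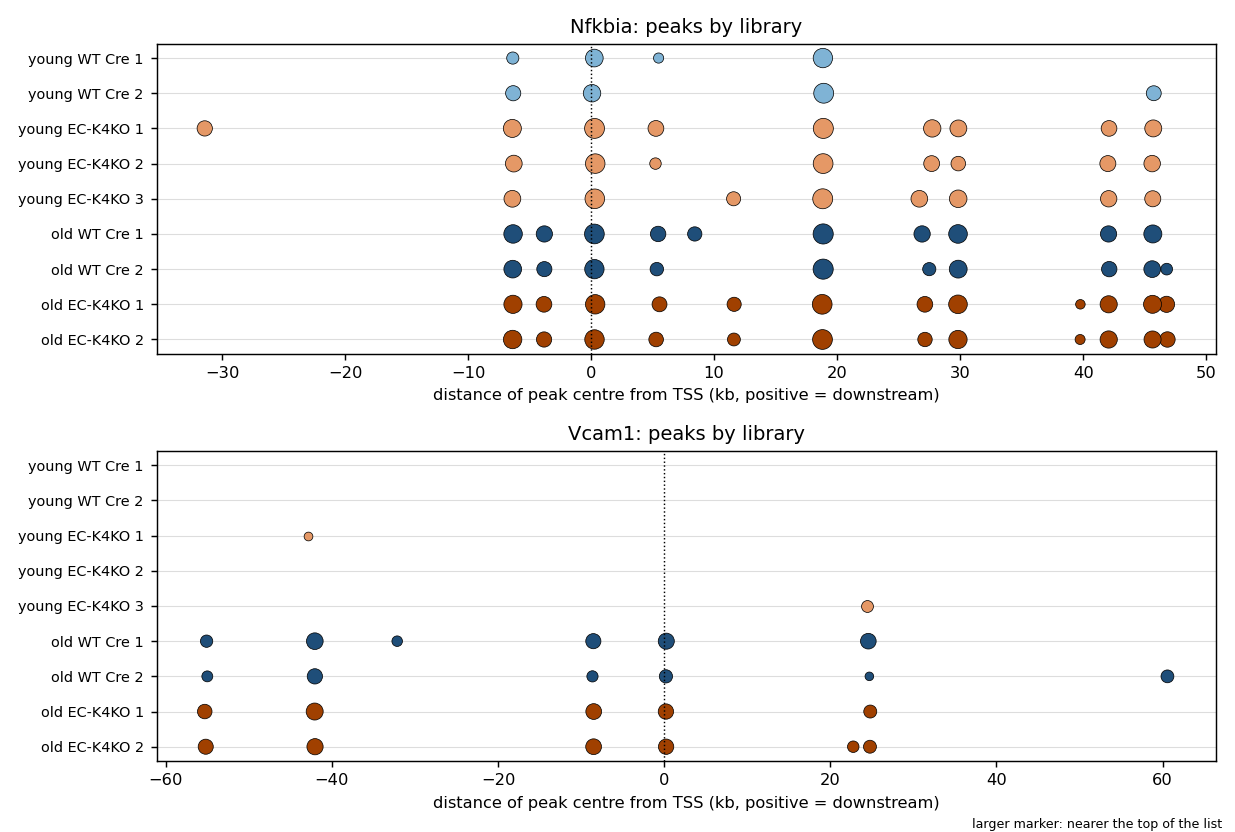
Peaks assigned to Nfkbia (top) and Vcam1 (bottom), 1 row a library, against the distance of the peak centre from the TSS in kb; larger markers lie nearer the top of the list. Nfkbia peaks at the TSS, -6.4 kb and +18.9 kb stand in every row, and Vcam1 peaks at the TSS stand in the 4 old rows only.

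The adhesion molecules divided into those open in most libraries and those seen mainly in old libraries. Icam1, which binds leukocyte integrins on activated endothelium, had a TSS peak in 8 libraries, all but young WT Cre 1. Its rank was 5275 in young WT Cre 2, 7824, 8983 and 8080 in young EC-K4KO, 6533 and 7556 in old WT Cre, and 14045 and 11083 in old EC-K4KO. By rank the old EC-K4KO libraries placed it below all others. As a share of the list it lay at 31.2% and 28.4% there and 55.0% in young WT Cre 2. The share was 28.9% to 35.5% in young EC-K4KO and 14.9% and 23.2% in old WT Cre. The old EC-K4KO peaks were 2118 and 1319 bp wide, against 430 and 1082 bp in old WT Cre. Widths were 291 to 556 bp in young EC-K4KO and 187 bp in young WT Cre 2. The deposited -log10 p is an average over the whole width. Icam1 -3.8 kb was likewise held by 8 libraries, all but young WT Cre 2.

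Icam2, the adhesion molecule of resting endothelium, had a TSS region in 6 libraries. The region spans chr11:106381890-106383706. It was not listed in both young WT Cre libraries and in young EC-K4KO 1, ranked 15529 and 16070 in young EC-K4KO 2 and 3, and 12801 to 14809 in the 4 old libraries. Vcam1 had a TSS region, in its exon 1, in the 4 old libraries alone. It ranked 19481 and 21957 in old WT Cre and 22846 and 19800 in old EC-K4KO, past the end of both young WT Cre lists and within the length of the young EC-K4KO lists. The region lies at chr3:116129271-116129627, 281 to 334 bp wide, with a fold enrichment of 4.20 and 4.07 in old WT Cre and 5.23 and 5.85 in old EC-K4KO. The genotypes overlap in rank and not in fold enrichment, which was not tested here. Vcam1 peaks at -55.1, -42.1 and -8.5 kb also occurred in the 4 old libraries alone, while 2 young EC-K4KO libraries each held 1 other Vcam1 peak. Sele and Selp, which catch rolling leukocytes, had no peak within 1000 bp of the TSS in any library. Their nearest regions were Sele -4.6 kb in 5 libraries and Selp +6.4 kb, in intron 1 of 15, in 4, none of them young WT Cre. Sele -4.6 kb (chr1:164043467-164043887) ranked 12820 in young EC-K4KO 2, 22642 and 19865 in old WT Cre, and 14547 and 14581 in old EC-K4KO. Here the old EC-K4KO libraries ranked the region above the old WT Cre ones.

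Promoter peaks of Cxcl1, a neutrophil attractant, and Cxcl12, which holds leukocytes at the outer side of the brain vessel, were found in 8 libraries, all but young WT Cre 1. The Cxcl1 TSS ranked 7192 in young WT Cre 2, 7343, 10639 and 12451 in young EC-K4KO, 9290 and 10557 in old WT Cre, and 13220 and 12712 in old EC-K4KO. The Cxcl12 TSS ranked 4012 in young WT Cre 2, 9192 to 9869 in young EC-K4KO, 8271 and 10017 in old WT Cre, and 9341 and 9241 in old EC-K4KO. The best-ranked Cxcl12 region lay at +269.5 kb (chr6:117437669-117438358, intergenic) and was held by all 9 libraries at ranks 1262 to 3499. A neighbour at +265.8 kb was not listed in young WT Cre, and ranked 7940, 7249 and 13214 in young EC-K4KO, 3818 and 3319 in old WT Cre, and 5027 and 4980 in old EC-K4KO. All 4 old libraries ranked it above every young library, though their lists were longer. Cxcl12 +179.0 kb was held by young EC-K4KO 3 at rank 17848 and by the old libraries at 7735 and 8468 in WT Cre and 7595 and 10106 in EC-K4KO.

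**Figure D3:**
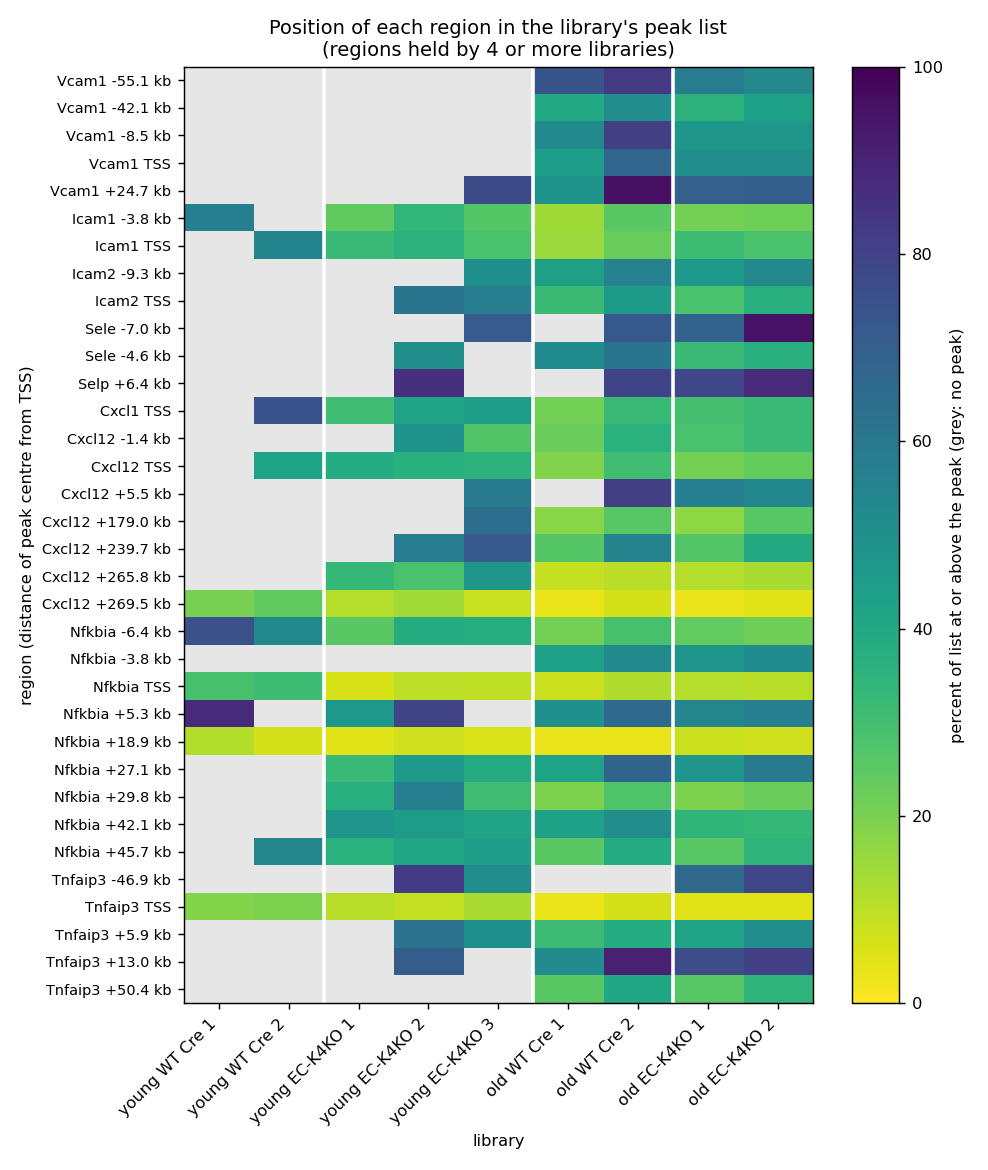
Rows are the 34 regions of the 10 genes held by 4 or more libraries, columns the 9 libraries. Colour is the percent of the library's list at or above the region's strongest peak (yellow near 0, dark near 100), and grey means no peak; the 2 young WT Cre columns are mostly grey, and the Nfkbia +18.9 kb row is among the brightest.

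The next comparison asks which regions were present in a group and missing in young WT Cre. A gene or region is called gained when every library of a group held it and no young WT Cre library did. The background is the same share over all genes with such a peak in any library. Of the 10 genes, 6 had a promoter-class peak in any library (Vcam1, Sele, Selp and Ccl2 did not), and 0 of the 6 were gained in young EC-K4KO (all genes: 10.3%). Icam2 was the 1 gained in old WT Cre (26.7%) and the 1 gained in the old knockouts (30.2%), which is 16.7% of the 6. With any peak within 1000 bp of the TSS, 7 genes could be gained. None was in young EC-K4KO (14.9%), and 2, Icam2 and Vcam1 (28.6%), were in each old group (31.1% for WT Cre, 36.3% for EC-K4KO). Without young WT Cre 2, 3 of the 6 were gained at the promoter in each group, against 19.1% of all genes for young EC-K4KO, 37.9% for the old controls and 41.3% for the old knockouts. Cxcl1 and Cxcl12 were among them in each, with Icam1 in young EC-K4KO and Icam2 in the old groups.

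Of the 68 regions with no promoter-class peak in any library, 4 (5.88%) were gained in young EC-K4KO (all such regions: 2.43%), 18 (26.5%) in old WT Cre (15.3%) and 27 (39.7%) in the old knockouts (24.9%). The young EC-K4KO ones were Nfkbia +27.1, +29.8 and +42.1 kb and Cxcl12 +265.8 kb, and all 4 were also gained in both old groups. The shares lie above the background in the 3 groups, as descriptions, since regions of one gene share their locus and the comparisons share the young WT Cre libraries. In the count of regions held by the 4 old libraries and no young one, 6 of 68 (8.82%) were found against 4.02% of all. They were Tnfaip3 +50.4 kb, Nfkbia -3.8 kb, and Vcam1 TSS, -8.5, -42.1 and -55.1 kb. The count over old libraries was added after seeing the data. Without young EC-K4KO 1, 8 of the 68 (11.8%) were gained in young EC-K4KO, against 6.93% of all. Without old WT Cre 1, 28 (41.2%) were gained in old WT Cre against 23.9%, and without old WT Cre 2, 33 (48.5%) against 37.7%. Among peaks with q under 0.01, which kept 44 of the 68 regions, the shares were close to the background in the old groups: 15 (34.1%) against 32.9% in WT Cre and 25 (56.8%) against 56.3% in EC-K4KO. In young EC-K4KO it was 3 (6.82%) against 4.60%.

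The same counts were made on the strongest 6157 peaks of each library, the length of the shortest list. These lists held 7 regions of the 10 genes without a promoter-class peak. None of the 7 was gained in young EC-K4KO (all regions: 2.06%) and 1 (14.3%) in each old group (7.46% for WT Cre, 9.54% for EC-K4KO), which was Cxcl12 +265.8 kb both times. Genes with a TSS peak within 1000 bp then numbered 2 and 4 in young WT Cre and 2 in each of the other 7 libraries, against 2 and 5 in young WT Cre, 5 to 6 in young EC-K4KO and 7 in each old library in the full lists. Promoter-class gains were 0 of the 4 genes held, against 3.69%, 7.87% and 8.30% of all genes for young EC-K4KO and the old WT Cre and knockout groups. The gains in the full lists thus mostly rest on peaks past position 6157.

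Ranks were compared with limma on normal scores of the rank, in which a higher score lies nearer the top and 1 unit is 1 SD of the ranked features. Of the 10 genes only Tnfaip3 had a promoter-class peak in all 9 libraries, among 2279 genes; the Nfkbia TSS peak is annotated to exon 1 in 8. Tnfaip3 differed by -0.65 ± 0.24 (SE) between young EC-K4KO and young WT Cre (adjusted p = 0.164), where 1.62% of genes were called. It differed by -0.14 ± 0.26 for old EC-K4KO against old WT Cre (adjusted p = 1.00), where limma called 0% of genes and 69 had an unadjusted p under 0.05. Between old and young WT Cre it differed by -0.12 ± 0.26 (adjusted p = 0.801, 5.31% called) and between old and young EC-K4KO by 0.40 ± 0.24 (adjusted p = 0.341, 3.82% called). The interaction of genotype and age was 0.51 ± 0.35 (adjusted p = 0.704), with 0% of genes called and 220 at an unadjusted p under 0.05. Peak width, on a log2 scale, differed for Tnfaip3 by 0.07 ± 0.09 between genotypes within age (adjusted p = 0.725, 0.219% of genes called) and by -0.10 ± 0.09 between ages within genotype (adjusted p = 0.452, 6.54% called).

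In a fit over merged regions, added after seeing the data, 5 of the 74 regions were among the 4872 held by all 9 libraries. No region of the 10 genes was called for young EC-K4KO against young WT Cre (4.15% of regions), old EC-K4KO against old WT Cre (0%, 189 regions at an unadjusted p under 0.05), old against young WT Cre (6.08%), old against young EC-K4KO (6.51%) or the interaction (0%, 525 regions), nor for width between genotypes (0.287%) or ages (7.61%). The largest difference was at Nfkbia +18.9 kb, at -0.82 ± 0.23 for old EC-K4KO against old WT Cre (adjusted p = 0.863). Among the shared regions it ranked 1357 and 1110 in old WT Cre and 2962 and 2503 in old EC-K4KO, which do not overlap. Against young EC-K4KO it differed by -0.69 ± 0.21 (adjusted p = 0.0836), and the interaction was -0.25 ± 0.32 (adjusted p = 0.830). The Nfkbia TSS differed by -0.73 ± 0.25 between old and young EC-K4KO (adjusted p = 0.107). With 1 of the young WT Cre libraries left out, whichever it was, both regions passed between old and young EC-K4KO, at adjusted p = 0.0427 and 0.0457; those libraries enter this comparison only through the estimate of the spread, and 15.2% of all regions were then called. Without young EC-K4KO 1 the Nfkbia -6.4 kb region passed for young EC-K4KO against young WT Cre (adjusted p = 0.0392, 4.93% of regions called). Without young WT Cre 2, widths relative to the median of the shared regions passed at Cxcl12 +269.5 kb between genotypes (adjusted p = 0.0439), where 14.4% of all regions were called. Between ages it passed there (adjusted p = 0.0302) and at the Nfkbia TSS (adjusted p = 0.0137), where 25.3% were called.

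**Figure D4:**
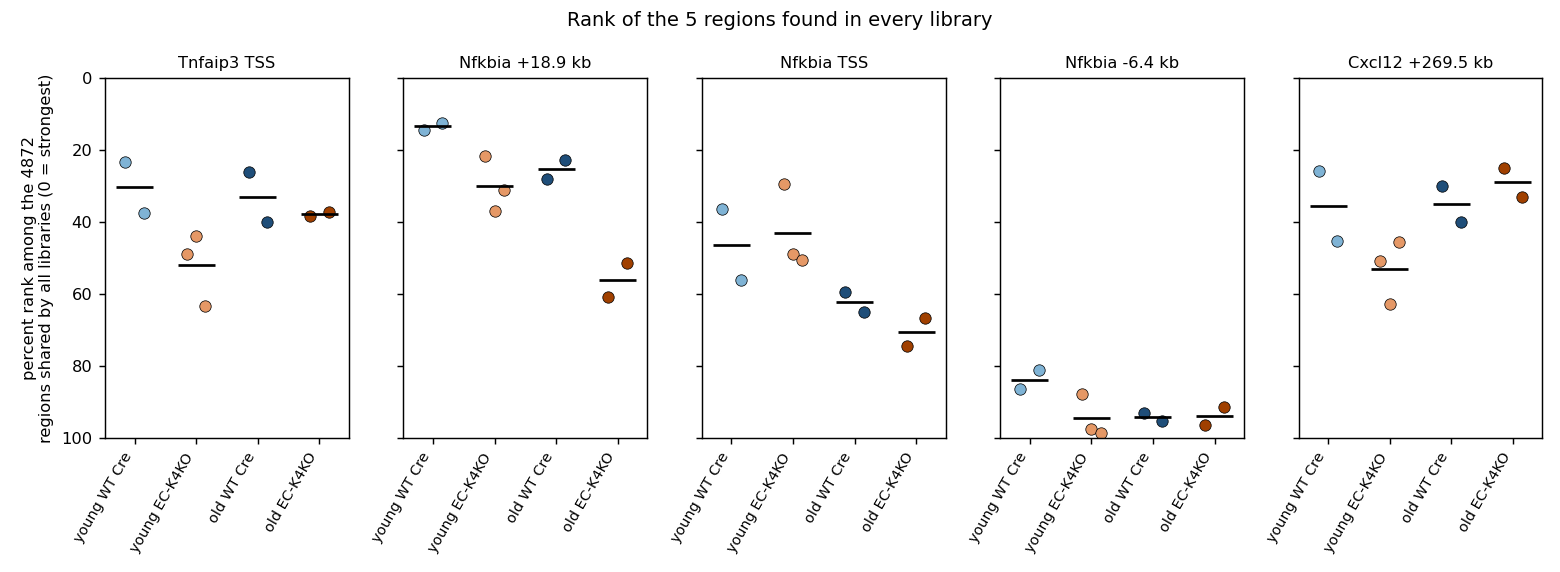
Percent rank of the 5 regions of these genes that all 9 libraries held, among the 4872 such regions (0 is the strongest, at the top), 1 point a library and a bar at the group mean. At Nfkbia +18.9 kb the old EC-K4KO points, ranks 2962 and 2503, sit below all others, and at Tnfaip3 TSS the young EC-K4KO points sit lowest.

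A second such fit, also added after seeing the data, left young WT Cre out and kept 14 of the 74 regions among the 11594 held by the other 7 libraries. For old EC-K4KO against old WT Cre none was called (0% of regions, 678 at an unadjusted p under 0.05). The Icam1 TSS differed by -0.80 ± 0.20 (adjusted p = 0.70). For old against young EC-K4KO, 8.62% of all regions were called and 1 of the 14 passed, which is near that share. Nfkbia +27.1 kb lay at ranks 7628, 9951 and 9437 of the shared regions in young EC-K4KO, 11009 and 11415 in old WT Cre, and 11304 and 11370 in old EC-K4KO, a difference of -1.22 ± 0.24 (adjusted p = 0.0237). All 4 old libraries ranked it below the 3 young EC-K4KO libraries. The peak was 479, 554 and 2242 bp wide in young EC-K4KO and 2082 and 2062 bp in old EC-K4KO, and its -log10 p is averaged over that width. Without old EC-K4KO 1 or 2 the adjusted p was 0.172 or 0.231, with 0 and 1 of the 11594 regions called. With peaks ranked by fold enrichment it was 0.0228 and Nfkbia +18.9 kb passed too (-1.06 ± 0.27, adjusted p = 0.0283), where 15.8% of all regions were called, a share near 2 of 14. Cxcl12 +265.8 kb differed by 0.87 ± 0.28 (adjusted p = 0.0833). Width called 0.207% of regions between the ages of EC-K4KO and 0% for old EC-K4KO against old WT Cre (374 at an unadjusted p under 0.05), and none of the 14. Without young EC-K4KO 3 the width of Nfkbia +27.1 kb passed (1.60 ± 0.14 on the log2 scale, adjusted p = 0.0437, 0.414% of regions called).

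Other genes of the pathway were read the same way. Of 31 NF-kB pathway genes (receptors, adaptors, kinases and Rel factors), 12 to 29 had a peak within 1000 bp of the TSS per library, and of 25 other adhesion and chemokine genes 4 to 17. Of these genes, 30 and 19 had such a peak in any library, and the counts are 40% to 96.7% of the 30 and 21.1% to 89.5% of the 19, against 30.5% to 85.7% of all genes with such a peak in any library. With any peak within 1000 bp of the TSS, young EC-K4KO gained 7 of the 30 NF-kB genes (23.3%), old WT Cre gained 12 (40%) and the old knockouts gained 11 (36.7%). Of the 19 adhesion and chemokine genes, 3 (15.8%), 5 (26.3%) and 8 (42.1%) were gained in the same order. The backgrounds are the 14.9%, 31.1% and 36.3% above. The NF-kB genes gained in all 3 groups included the NF-kB subunit Nfkb2, the kinases Chuk and Ikbkb, and the IkB proteins Nfkbiz and Nfkbie, and the chemokine Cx3cl1 and the junction protein F11r were gained in all 3 as well. Among the 8 NF-kB and 2 adhesion genes with a promoter-class peak in all libraries, none was called for rank or width, and the smallest adjusted p (limma) was 0.0532, for the width of Nfkbiz between ages at -0.31 ± 0.08, named here after its values were seen. The median rank difference of the 8 NF-kB genes was 0.10 for young EC-K4KO against young WT Cre, 0.18 for old EC-K4KO against old WT Cre, -0.21 for old against young WT Cre and -0.10 for old against young EC-K4KO, against -0.01 to 0.03 over all 2279 genes. With the 1000 bp definition, over 11 genes, the same medians were 0.02, 0.06, -0.10 and 0.18, so that the sign for old against young EC-K4KO depended on the definition.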

How the data were processed

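Omni-ATAC-seq was done on brain ECs of mice, 9 libraries in all. By the study's methods and the submitters' processing notes, the authors mapped reads to mm10 (GRCm38) with Bowtie2 and called broad peaks with MACS2 on each library alone. The deposited lists give a score, a fold enrichment (a ratio to local background), a -log10 p and a -log10 q, each averaged over the peak by the authors, and end at a q near 0.1. The methods name ChIPseeker for annotation, while the deposited annotation files have the header of HOMER, whose gene, class and distance to the TSS in bp were used. All 253457 peaks lay within GRCm38 chromosome ends.

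Peaks were ranked by -log10 p within each library, merged at 1 bp of overlap, and compared with limma 3.58.1 (R 4.3.3; group means, moderated statistics, Benjamini-Hochberg adjustment over all features, threshold 0.05) on normal scores of ranks and on log2 width centred on the library median, over features present in every library compared. A region's width is the summed width of its peaks and its rank is that of its strongest peak. The fit was tested on simulated data. Tables and plots used Python 3.11.15 with pandas 2.3.3, matplotlib 3.10.9, scipy 1.17.1 and numpy 2.4.6. Promoter windows came from RefSeq (GRCm38.p6), which had a TSS within 20 bp of the annotated one for each of the 7 genes matched. Tnfaip3 has a second one there.

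All 10 genes were named. The rule named distal regions held by all 9 libraries and up to 10 others by mean position, and of each context list up to 5 genes that passed a test and up to 5 gained ones by mean rank. Other regions were named after their values were seen, because a count of gained regions, a test or a sequence turned on them. The genes and lists were chosen with earlier results of these data known. Alternatives were a 1000 bp promoter definition, peaks with q under 0.01, ranking by fold, a log2 rank scale, lists of equal length, merging at 100 bp, a replicate block and leaving out each library. Without read counts, the authors' test on reads could not be rerun and no counting interval is given.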

Additional observations from a re-analysis of the deposited data

How the results depend on the processing

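Correlations of same-numbered libraries' deviations from their group means ran from -0.01 to 0.12. In a group of 2 libraries the deviations mirror each other, so some of these values repeat and they cannot exclude a pairing. With a replicate block, rank calls over all 2279 genes went from 37 to 0 for young EC-K4KO against young WT Cre and from 87 to 5 for old against young EC-K4KO, and width calls from 5 to 1 between genotypes and from 149 to 23 between ages; Nfkbia +27.1 kb kept its call (adjusted p = 0.0396). With the best peak within 1000 bp of the TSS, over a larger set of 3265 genes, 97 were called for young EC-K4KO against young WT Cre. Width between ages called 253 of the same 3265. With ranking by fold, 311 of the 2279 genes were called for old against young WT Cre. With peaks of q under 0.01, 1 of 6 genes (16.7%) was gained at the promoter in young EC-K4KO, against 11.6% of all genes. In each old group 2 of 6 (33.3%) were gained, against 31.6% for WT Cre and 36.0% for EC-K4KO. Lists of equal length gave 0 genes in both old groups and 0, 1 and 1 distal regions. The 1000 bp definition gave 2 and 2 genes in the old groups. The shares over all features for these 2 settings are given above. Ranking by fold called 2 of the 14 regions of the 10 genes for old against young EC-K4KO over 7 libraries, and 15.8% of all regions. Leaving out 1 library moved rank calls over 0 to 204 genes (young EC-K4KO against young WT Cre; 204 without young WT Cre 2, 0 without young EC-K4KO 2 or 3), 0 to 307 (old against young WT Cre; 0 without old WT Cre 1), 0 to 267 (old against young EC-K4KO; 0 without either old EC-K4KO library) and 0 to 16 (interaction; 16 without young WT Cre 2), and width calls over 1 to 343 between genotypes and 3 to 573 between ages, highest without young WT Cre 2. Genes gained at promoters ranged over 0 to 3, 1 to 3 and 1 to 3, and distal regions over 4 to 8, 19 to 33 and 28 to 33. By the definition of a gain, leaving out a library can only keep or raise these counts, so their ranges cannot show a loss. Member regions called over 9 libraries ranged over 0 to 1 for young EC-K4KO against young WT Cre, 0 to 2 for old against young EC-K4KO, and for width 0 to 1 between genotypes and 0 to 2 between ages; over 7 libraries they ranged over 0 to 1 for rank and 0 to 1 for width. The cause was not tested. Tnfaip3 was called under none of the alternatives run. An arm left with 1 library was assumed to vary like the others, and the unknown depth limits every comparison of presence.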
